A study of Rattus norvegicus with 72 samples.

Results

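The genes described are Cdkn1a, Btg1, Ccng1, Phlda3, Tigar, Fas, Aen and Bmf, 8 genes of cell-cycle arrest, survival and cell death that are mostly known as targets of the transcription factor p53. They were found as the probes whose symbol in the platform annotation is one of these names, which gave 12 of the 20500 probes and 8 of the 17299 features tested. All 8 had values in at least 2 rats of every group and so passed the filter. They were chosen with their ratios in these same rats known, so their values and calls below are a description and no p-value is given for them. RNA from the left liver lobe was compared on Agilent arrays between 36 single rats, each gavaged with acetaminophen suspended in methyl cellulose, and RNA of rats that received the vehicle. Each of the 12 combinations of dose (50, 150, 1500 and 2000 mg/kg) and time (6, 24 and 48 h) has 3 rats. The reference of each group was a pool made from the control rats of its own dose and time, although the titles of the 150 mg/kg groups speak of a mock control at 6 h and of sham and mock controls at 24 h. The sources used here do not give strain, sex or age, and the unit mg/kg stands only in the titles of 150 mg/kg at 6 and 24 h.

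p53 is held low in unstressed cells by the ubiquitin ligase Mdm2 and is stabilised by DNA damage and other stress, after which it binds elements in its target genes. Some of these targets stop the cell cycle, some shift metabolism or growth signalling, and some lower the threshold of apoptosis, and the balance of these programmes is often called cell fate. Acetaminophen in excess is oxidised in hepatocytes to a reactive quinone imine that depletes glutathione, and the injured liver then regrows by division of the surviving hepatocytes. Several of the 8 genes also answer to other regulators, among them FOXO factors, NF-kB and stress kinases.

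A value is the log2 ratio of a treated rat over its pool, the mean of 2 arrays on which the dyes were exchanged, and is given as mean ± SD over the 3 rats of a group unless stated otherwise. Positive means more RNA in the treated rat, if the deposited ratios are Cy5 over Cy3, as the scanner software usually writes them. The labels leave this unsaid, and were it the other way round every sign would turn. A gene is called where limma's test over all features has a Benjamini-Hochberg adjusted p below 0.05 and the change is at least 1.5-fold. The arrays give ratios only, so neither the level of a gene nor its rank against another gene is known, and the liver could not be checked from the levels of its markers. In a piece of liver, fewer cells of a type and less RNA per cell cannot be told apart. Single rats stood apart in how much of the array moved. At 1500 mg/kg and 6 h, 28.9% of features were past 1.5-fold in rat 3032, against 4.37% and 7.39% in the other rats of the group. The share was 7.16% in rat 3020 at 1500 mg/kg and 24 h, where both other rats had 16%, and 33.2% in rat 3119 at 2000 mg/kg and 48 h, where the others had 17.9% and 18.6%.

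The regulatory sequence near the start of these genes was read from RefSeq promoter windows of the GRCr8 assembly, 250 bases before to 50 after the start of a transcript, and all 8 genes had such a window. The p53 consensus decamer, of which p53 binds a pair, was searched with exact letters. It reads the same on both strands, so that 1 search covers both. It was found in the windows of Cdkn1a, Ccng1 and Aen, 3 of 8 windows (37.5%). Of the promoter windows of 25 other p53 target genes on a list, 5 held it (20%), as did 574 of the 8374 windows of genes named on the array (6.85%) and 2671 of all 33469 windows (7.98%). The bases before the start are shown for these 3 genes because their ratios moved at different times, with the decamer in capitals, 5′ to 3′ on the strand of the gene. They lie at chr20:7150682-7150931 on the plus strand for Cdkn1a, chr10:25684877-25685126 on the minus strand for Ccng1 and chr1:142224283-142224532 on the plus strand for Aen.
Cdkn1a: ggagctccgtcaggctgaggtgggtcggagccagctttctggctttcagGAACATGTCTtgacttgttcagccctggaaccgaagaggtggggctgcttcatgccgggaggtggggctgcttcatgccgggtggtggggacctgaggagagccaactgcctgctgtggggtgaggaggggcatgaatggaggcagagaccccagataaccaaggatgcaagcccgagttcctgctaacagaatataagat
Ccng1: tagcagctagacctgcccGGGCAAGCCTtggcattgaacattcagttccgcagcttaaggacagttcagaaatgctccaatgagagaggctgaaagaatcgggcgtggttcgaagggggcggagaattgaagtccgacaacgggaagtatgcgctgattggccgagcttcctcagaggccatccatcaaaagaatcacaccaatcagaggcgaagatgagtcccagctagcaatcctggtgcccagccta
Aen: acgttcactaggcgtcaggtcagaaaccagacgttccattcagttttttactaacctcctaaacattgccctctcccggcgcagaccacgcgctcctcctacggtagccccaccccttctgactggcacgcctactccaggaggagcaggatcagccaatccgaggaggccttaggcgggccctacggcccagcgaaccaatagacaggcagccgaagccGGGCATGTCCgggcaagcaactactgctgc
The decamer begins 201 bases before the start in Cdkn1a, 232 before it in Ccng1 and 30 before it in Aen. In Cdkn1a and Ccng1 it lies upstream of the RefSeq gene record, and in Aen just inside it. Such a match is a run of letters and not a measured binding site, and its absence from the other 5 windows says only that these letters are not there.

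At 1500 and 2000 mg/kg the 8 genes moved at different times. Cdkn1a and Btg1 were high at 6 h, Aen at 24 h, and Ccng1 at 24 and 48 h. Tigar, Phlda3 and Fas were called higher at 48 h at both doses and at 24 h at 2000 mg/kg only. Phlda3 and Fas were first low, at 6 h, and Bmf was low at all 3 times. At 6 h, 4 of the 8 genes were called at 1500 mg/kg, where 7.03% of all features were called, and 5 at 2000 mg/kg, where 7.96% were. At 24 h the counts were 3 at 1500 mg/kg (9.89% of all features) and 6 at 2000 mg/kg (14.8%), and at 48 h they were 5 at 1500 mg/kg (18.7%) and 5 at 2000 mg/kg (22%). The genes were selected on these contrasts with counts and directions known, so nothing is read from either. Of all features called, the share that was higher ran 59.9%, 72.2% and 71% from the earliest to the latest 1500 mg/kg group. The 2000 mg/kg groups had 64.2%, 69.9% and 58.3%. Among the 8 genes the higher calls numbered 2 of 4, 2 of 3 and 4 of 5 for 1500 mg/kg. For 2000 mg/kg they were 2 of 5, 5 of 6 and 4 of 5. Of 48 gene-by-group values at the high doses, 28 were called, and in 27 of these each of the 6 arrays of the group had the sign of the mean. The exception was Ccng1 at 1500 mg/kg and 24 h, with 4 of 6 arrays. Called values lie at least 1.5-fold from the pool, so their arrays mostly share a sign by that choice, and this is no separate support. The 28 of 48 have no pooled share of all features beside them.

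**Figure D1:**
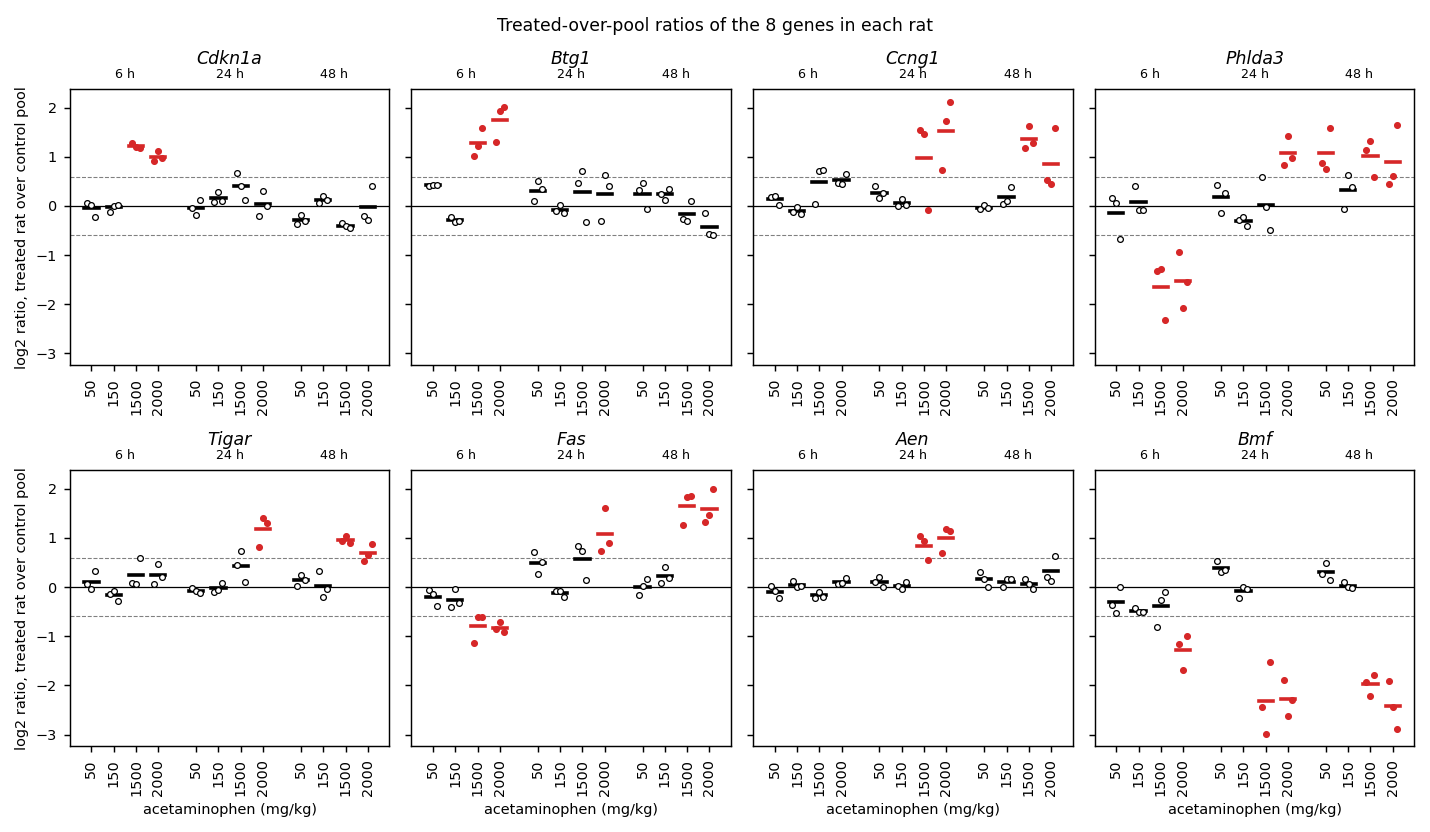
Each panel shows 1 gene, with a point for each of the 3 rats of a group and a bar for their mean, as log2 ratio of treated rat over control pool, by dose (mg/kg) within 6, 24 and 48 h. Red marks the called groups and dashed lines a change of 1.5-fold. Cdkn1a and Btg1 are high at 6 h only, Fas and Phlda3 are low at 6 h and high at 48 h, and Bmf reaches -2.99 in a rat at 1500 mg/kg and 24 h.

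At the low doses the same genes stayed mostly near their pools, with Phlda3 at 50 mg/kg and 48 h apart. The 2 arrays of a rat, turned by dye, correlated above 0 over all probes in only 6 of the 18 low-dose rats, against 15 of the 18 high-dose rats. Of 48 values at 50 and 150 mg/kg, 1 was called, Phlda3 at 50 mg/kg and 48 h. The background there was 1.42% of features at 50 mg/kg and 6 h, 3.55% at 24 h and 3.95% at 48 h, and for 150 mg/kg 0.0347% at 6 h, 0.145% at 24 h and 1.48% at 48 h. Phlda3 at 50 mg/kg and 48 h read 0.88, 0.75 and 1.58 in the 3 rats, a mean of 1.07 ± 0.45, and without rat 3151 the mean was 0.81 and the call ended. The gene has 1 probe, and its mean at 150 mg/kg and 48 h was 0.31 ± 0.34. Fas at 50 mg/kg and 24 h stood next, at 0.49 ± 0.23, and was called there without rat 3138, at 0.61. Btg1 at 50 mg/kg and 6 h was the tightest of the low-dose values that left 0, with 0.40, 0.42 and 0.43 in the 3 rats, while at 150 mg/kg and 6 h it read -0.23, -0.32 and -0.31.

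Cdkn1a encodes p21, which binds and blocks cyclin-dependent kinases and the replication clamp PCNA and is the best known transcriptional target of p53. At 6 h its ratios were 1.27, 1.20 and 1.18 in the rats at 1500 mg/kg and 0.92, 1.11 and 0.97 at 2000 mg/kg. All 6 rats lay above every rat of the other groups, of which the highest was 0.67 at 1500 mg/kg and 24 h. The means were 1.22 ± 0.05, a 2.32-fold ratio, and 1.00 ± 0.10, a 2-fold ratio. At 24 h Cdkn1a read 0.40 ± 0.27 at 1500 mg/kg and 0.03 ± 0.25 at 2000 mg/kg, and at 48 h -0.41 ± 0.05 and -0.03 ± 0.37, none of them called. The order of the group means put both 6 h high-dose groups first, and the neighbours below them, from 0.16 to -0.05, had ranges that overlapped.

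The 3 probes of Cdkn1a did not give the same size. At 6 h probe 7281 read 1.79 ± 0.57 at 1500 mg/kg and 1.85 ± 0.24 at 2000 mg/kg. Probe 10855 read 1.08 ± 0.27 and 0.69 ± 0.01 in the same groups, and probe 15802, which carries another transcript accession, 0.78 ± 0.37 and 0.46 ± 0.12. All 3 were positive in each of the 6 rats, and taken singly probe 15802 was not called at 2000 mg/kg. The probes also parted later. At 2000 mg/kg and 24 h probe 10855 read -0.61, -0.31 and -0.35, below 0 in each rat, where probe 15802 read 0.37, 0.53 and 0.11. At 1500 mg/kg and 48 h probe 7281 read -0.72, -0.65 and -0.80 and was called lower, which the mean of the 3 probes was not. Over the 36 rats their Pearson correlations were 0.64 to 0.77, so the mean of the gene stands for unlike probes.

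Aen encodes a nuclear exonuclease that is induced by p53 and digests nucleic acid during apoptosis. It was called at 24 h only, with 1.03, 0.93 and 0.55 in the rats at 1500 mg/kg and 0.69, 1.18 and 1.14 at 2000 mg/kg, means of 0.84 ± 0.25 and 1.00 ± 0.27. These 6 rats lay above every low-dose rat, of which the highest was 0.31, and rat 3119 at 2000 mg/kg and 48 h, at 0.62, was the only other rat among them. At 6 h the gene read -0.17 and 0.10, and at 48 h 0.06 and 0.32. The call rests on 1 of its 2 probes. Probe 3670 read 1.86, 1.77 and 1.04 at 1500 mg/kg and 1.33, 2.21 and 2.05 at 2000 mg/kg at 24 h, whereas probe 13387 read 0.20, 0.10 and 0.07 and 0.05, 0.15 and 0.23. Probe 13387 was called in no group, and probe 3670 also at 2000 mg/kg and 48 h (0.67 ± 0.46). In the 6 high-dose rats at 24 h probe 3670 was higher by a mean of 1.58, and over 36 rats the correlation of the probes was 0.51.

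**Figure D2:**
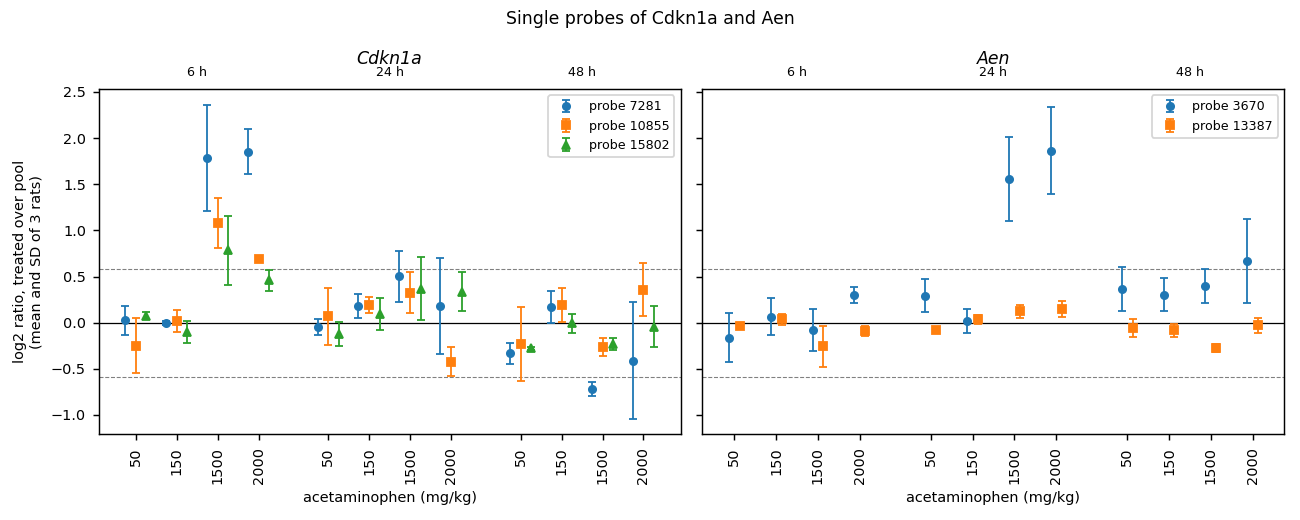
Mean log2 ratio of treated over pool (± SD, 3 rats) of the single probes of Cdkn1a and Aen, by dose (mg/kg) within 6, 24 and 48 h, with dashed lines at 1.5-fold. Probe 7281 of Cdkn1a stands at 1.79 and 1.85 at 6 h, above the other probes of the gene, and probe 13387 of Aen stays near 0 where probe 3670 reads 1.56 and 1.86 at 24 h.

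Btg1 encodes an antiproliferative protein that recruits the CCR4-NOT deadenylase to messenger RNAs and binds the arginine methyltransferase Prmt1. At 6 h it read 1.02, 1.22 and 1.59 at 1500 mg/kg and 1.30, 1.92 and 2.02 at 2000 mg/kg. The means were 1.28 ± 0.29 and 1.75 ± 0.39, ratios of 2.42-fold and 3.36-fold, and no rat of another group reached the lowest of these 6, the next being 0.71. At 24 h the groups split, with 0.47, 0.71 and -0.34 at 1500 mg/kg and -0.31, 0.63 and 0.41 at 2000 mg/kg. In each of these groups 1 rat was below its pool, rat 3020 at 1500 mg/kg and rat 3105 at 2000 mg/kg. Without rat 3020 the mean at 1500 mg/kg was 0.59 and called. By 48 h the means were -0.16 ± 0.22 and -0.44 ± 0.26. Without rat 3117 that at 2000 mg/kg was -0.59 and called lower. The 2 probes of Btg1 moved together, with a correlation of 0.98 over 35 rats, and 1 rat at 2000 mg/kg and 24 h had a value from 1 probe.

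Ccng1 encodes cyclin G1, a p53 target that brings the phosphatase PP2A to Mdm2. It was called at 24 and 48 h. At 6 h its means were 0.49 ± 0.39 at 1500 mg/kg and 0.52 ± 0.12 at 2000 mg/kg, under the fold minimum, although every array of both groups was positive. Without rat 3030 the mean at 1500 mg/kg was 0.71 and called. At 24 h the rats at 1500 mg/kg read 1.54, 1.46 and -0.08 and those at 2000 mg/kg 0.72, 1.73 and 2.12. The value near 0 is rat 3020, which sets the SD of that group (0.97 ± 0.92), and the call at 1500 mg/kg ended without rat 3018 (0.69) or without rat 3019 (0.73). At 48 h Ccng1 read 1.17, 1.62 and 1.27 at 1500 mg/kg and 0.53, 0.44 and 1.59 at 2000 mg/kg, where the mean was 0.85 ± 0.64. Without rat 3119 it was 0.49 and not called. The highest group mean was 1.53, a 2.88-fold ratio, at 2000 mg/kg and 24 h, and the ranges of the 4 high-dose groups at 24 and 48 h overlapped.

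Phlda3 encodes a small pleckstrin homology protein, induced by p53, that competes with the kinase Akt for membrane lipid. At 6 h it read -1.33, -1.28 and -2.33 at 1500 mg/kg and -0.94, -2.08 and -1.54 at 2000 mg/kg, means of -1.65 ± 0.59 and -1.52 ± 0.57, that is 3.13-fold and 2.88-fold lower than the pool. Every other rat of the study lay above these 6, the nearest at -0.67. At 24 h the high doses parted, with 0.82, 1.43 and 0.98 at 2000 mg/kg against 0.60, -0.03 and -0.50 at 1500 mg/kg, and these groups did not overlap. At 48 h Phlda3 was higher than the pool at both doses, 1.02 ± 0.38 at 1500 mg/kg and 0.90 ± 0.65 at 2000 mg/kg. Without rat 3119 the mean at 2000 mg/kg was 0.53 and not called. At 50 mg/kg and 48 h the mean of Phlda3 was as high, at 1.07 ± 0.45. The gene also had the largest dye effect among the 8. Its mean over arrays with the treated rat in Cy3 was above that over arrays with it in Cy5 in 11 of 12 groups, by 0.84 on average, and at 1500 mg/kg and 24 h the Cy5 arrays averaged -0.60 and the Cy3 arrays 0.64. Each rat holds both orientations, so an effect of the dye alone cancels in its mean. For the same reason a dye term in the fit can hardly move a group mean. That 0 of 96 group means of the 8 genes moved by 1 SD between rats was thus set by the design.

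Tigar encodes a bisphosphatase that lowers fructose-2,6-bisphosphate, which slows glycolysis and leaves more glucose for the pentose phosphate pathway and its NADPH. At 6 h it was near the pool, at 0.25 ± 0.29 and 0.24 ± 0.21. At 24 h the rats at 2000 mg/kg read 0.81, 1.41 and 1.30 and those at 1500 mg/kg 0.45, 0.72 and 0.11, again without overlap. The mean of 1.17 ± 0.32 at 2000 mg/kg was a 2.26-fold ratio and was called, and that of 0.43 ± 0.31 at 1500 mg/kg was not. At 48 h both groups were called, with 0.94, 1.03 and 0.90 at 1500 mg/kg and 0.53, 0.66 and 0.88 at 2000 mg/kg. These 6 rats lay above every low-dose rat, of which the highest was 0.32. With arrays scaled to equal spread the mean at 2000 mg/kg and 48 h was 0.53 and not called.

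Fas encodes the death receptor that binds Fas ligand and to which hepatocytes are sensitive. At 6 h it was below the pool in every high-dose rat, with -1.14, -0.61 and -0.61 at 1500 mg/kg and -0.85, -0.71 and -0.92 at 2000 mg/kg, lower than in any other rat of the study. The means were -0.78 ± 0.31 and -0.83 ± 0.11. At 24 h it read 0.84, 0.74 and 0.14 at 1500 mg/kg and 0.73, 1.60 and 0.90 at 2000 mg/kg. The mean of 0.57 ± 0.38 at 1500 mg/kg missed the fold minimum and was called without rat 3020, at 0.79. At 48 h Fas read 1.26, 1.82 and 1.85 at 1500 mg/kg and 1.32, 1.47 and 2.0 at 2000 mg/kg, ratios of 3.13-fold and 3.02-fold.

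Bmf encodes a BH3-only protein that binds and neutralises survival members of the BCL2 family, and is known as a sensor of cytoskeletal stress more than as a p53 target. It was the one gene of the 8 whose calls were all lower. At 6 h it read -1.16, -1.70 and -1.0 at 2000 mg/kg, called, and -0.81, -0.27 and -0.10 at 1500 mg/kg, not called. At 24 h the rats at 1500 mg/kg read -2.44, -2.99 and -1.53 and those at 2000 mg/kg -1.88, -2.63 and -2.29, and at 48 h they read -1.93, -2.22 and -1.79 and -1.92, -2.44 and -2.88. The 4 means at 24 and 48 h, from -2.41 ± 0.48 to -1.98 ± 0.22, were 3.94-fold to 5.33-fold below the pool, and their ranges overlapped one another. In the low-dose rats Bmf lay between -0.53 and 0.52. At 6 h the low doses were also below their pools in every rat, -0.37, -0.53 and -0.01 at 50 mg/kg and -0.43, -0.51 and -0.50 at 150 mg/kg, and with arrays scaled to equal spread 150 mg/kg was called there, at -0.82.

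The change with time over both high doses is given as differences, with the SE of the model. Between 24 and 6 h, 7 of the 8 genes were called, against 10.1% of all features, but these contrasts were known when the genes were chosen. At 24 h relative to 6 h, Phlda3 was higher by 2.13 ± 0.24, Fas by 1.63 ± 0.15, Aen by 0.95 ± 0.09 and Ccng1 by 0.75 ± 0.23 on the log2 scale. In the other direction the differences were -1.46 ± 0.19 for Bmf, -1.25 ± 0.16 for Btg1 and -0.89 ± 0.10 for Cdkn1a. Taken singly, probe 3670 of Aen read 1.60 ± 0.16 and was called, and probe 13387, at 0.31 ± 0.06, was not. Probes 7281 and 10855 of Cdkn1a were called, at -1.48 ± 0.18 and -0.93 ± 0.13, and probe 15802, at -0.27 ± 0.11, was not. Tigar, at 0.56 ± 0.12, stayed under the fold minimum, and was called without rat 3032 (0.64), 3094 (0.61), 3020 (0.63) or 3105 (0.65). The call of Ccng1 ended without rat 3018 (0.60) and with arrays scaled to equal spread (0.41). Between 48 and 24 h only Fas and Aen were called, where 9.08% of all features were, and they moved apart, Fas by 0.79 ± 0.15 and Aen by -0.73 ± 0.09. With scaled arrays Aen read -0.50 and was not called. Btg1, at -0.56 ± 0.16, was called without rat 3020 (-0.71), 3105 (-0.70), 3008 (-0.62) or 3117 (-0.63). For Aen, probe 3670 read -1.17 ± 0.16 and was called, and probe 13387, at -0.29 ± 0.06, was not. The probes of Cdkn1a differed here too. Between 48 and 24 h probe 7281 fell by 0.91 ± 0.18 and was called, while probe 15802 read -0.49 ± 0.11 and probe 10855 0.09 ± 0.13.

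Between the high doses few values differed. At 24 h, 2000 minus 1500 mg/kg gave 2 calls among the 8 genes, against 5.19% of all features, with Phlda3 at 1.06 ± 0.34 and Tigar at 0.75 ± 0.16. Neither was called with arrays scaled to equal spread (0.78 for Phlda3 and 0.46 for Tigar). The call of Phlda3 also ended without rat 3019 (1.03), 3020 (0.80), 3106 (0.88) or 3107 (1.10), and without rat 3105 Ccng1 (0.96) and Fas (0.68) were called as well. At 6 h 0 of the 8 were called by limma, where 0.613% of features were, and 3 had an unadjusted p under 0.05. Bmf had the largest difference there, -0.89 ± 0.26, and was called without rat 3030, at -1.10. At 48 h 0 were called by limma, against 5.4% of features, and 1 had an unadjusted p under 0.05. The differences there ran from -0.50 ± 0.32 for Ccng1 to 0.37 ± 0.14 for Cdkn1a. The counts at an unadjusted p have no share of all features beside them, and nothing is read from them. Probe 10855 of Cdkn1a, taken singly, was called lower at 24 h (-0.75 ± 0.18) and higher at 48 h (0.62 ± 0.18), which its other probes were not. Each of these differences also holds the difference between 2 separate control pools.

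**Figure D3:**
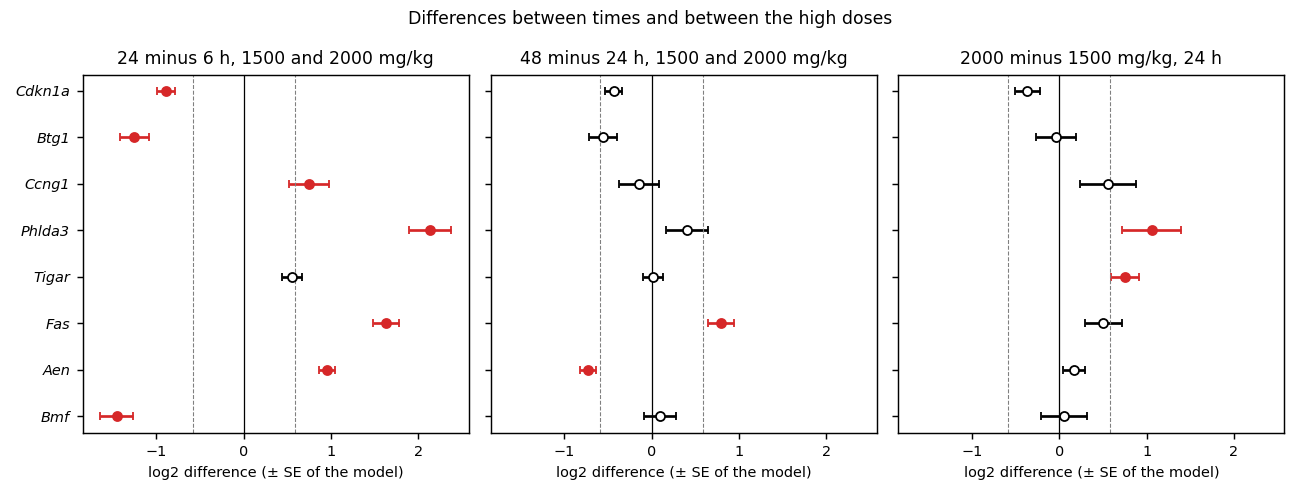
Log2 difference (± SE of the model) for each of the 8 genes between 24 and 6 h and between 48 and 24 h over both high doses, and between 2000 and 1500 mg/kg at 24 h. Red points are called and dashed lines mark 1.5-fold. Phlda3 has the largest difference between times, 2.13, and the 24 h difference between doses is called for Phlda3 and Tigar.

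How the genes varied together over the 36 rats is given as a description, since rats of a group share dose, time and pool. Cdkn1a and Btg1 went together (Pearson r = 0.77), as did Ccng1 and Tigar (0.86) and Phlda3 and Fas (0.76). Bmf ran opposite to Tigar (-0.78) and Ccng1 (-0.78), and Phlda3 opposite to Cdkn1a (-0.73) and Btg1 (-0.72). Cdkn1a and Ccng1, both classical p53 targets with the decamer shown above, were nearly unrelated (0.09). The 3 named genes outside the 8 with the highest r were Pptc7, Edem1 and Tnfrsf4 for Cdkn1a (0.90 to 0.93) and Slc16a10, Nfkbiz and Sdc4 for Btg1 (0.89 to 0.90). They were Sdcbp, Spryd3 and Map2k1 for Ccng1 (0.91 to 0.93), Pop7, Med6 and Nup188 for Tigar (0.91 to 0.94) and Aqp8, Nfe2l2 and Cdk2ap2 for Phlda3 (each 0.85). For Fas they were Kcnj8, Hnrnpa1 and Akr1a1 (each 0.93), for Aen Riok3, Dnlz and Bysl (0.90 to 0.91), and for Bmf Kynu, Abat and Gckr (0.93 to 0.94).

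Of 31 further p53 target genes on a list, 20 were measured, and 10 of these passed the test in at least 1 high-dose group. The share of all features that did so over the same groups was not counted, so the 10 have no background here. At 6 h 4 of 20 rose at 1500 mg/kg and 4 at 2000 mg/kg. At 24 h 5 rose and 1 fell at 1500 mg/kg, and 4 rose and 2 fell at 2000 mg/kg, and at 48 h 4 rose and 2 fell at 1500 mg/kg and 6 rose and 2 fell at 2000 mg/kg. The background shares of these single groups are those given above, from 7.03% to 22%, and the median of the 20 genes lay between -0.14 and 0.23 in them. With arrays scaled to equal spread 2 genes were called at 1500 mg/kg and 6 h, the 24 h calls were 4 higher and 0 lower at 1500 mg/kg and 2 higher and 0 lower at 2000 mg/kg, and at 2000 mg/kg and 48 h they were 3 higher and 2 lower. Without rat 3032 the count at 1500 mg/kg and 6 h was 1.

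Gadd45a, a growth arrest and DNA damage gene that binds PCNA and stress kinases, rose in all 6 high-dose groups, with 0.82, 1.81, 1.27, 1.90, 1.34 and 2.27 at 1500 and 2000 mg/kg at 6, 24 and 48 h in turn. Tp53inp1, a nuclear partner of p53 and autophagy factor, rose in both groups at 6 h (0.98 ± 0.41 and 1.67 ± 0.38), at 1500 mg/kg and 24 h (1.30 ± 0.21) and at 2000 mg/kg and 48 h (0.64 ± 0.42). Bax, the pore-forming killer of the BCL2 family, was at 0.00 and 0.00 at 6 h and rose at 24 h (0.87 ± 0.38 and 0.87 ± 0.22) and 48 h (1.23 ± 0.10 and 1.08 ± 0.54). Rps27l, a ribosomal protein paralogue, passed the test in the same 4 groups, at 0.81, 0.77, 1.23 and 1.04. Sesn2, an inhibitor of the growth kinase mTORC1, rose at 2000 mg/kg and 6 h (0.67 ± 0.18) and fell at 48 h (-1.05 ± 0.21 and -1.59 ± 0.21). Mdm2, which is both a p53 target and its inhibitor, passed in no high-dose group, with -0.26, -0.49, 0.07, -0.13, -0.57 and 0.21 in the same order of groups. At the low doses Gadd45a rose at 50 mg/kg at 24 h (1.15 ± 0.20) and 48 h (1.23 ± 0.78), with Sesn2 lower at 24 h (-0.71 ± 0.20) and Plk3, a polo-like kinase, higher at 48 h (0.72 ± 0.42), and at 150 mg/kg Plk2, its relative, was lower at 48 h (-0.63 ± 0.51). At 50 mg/kg and 48 h the list's count was 1 without rat 3151, 4 without rat 3149 and, with scaled arrays, 3 higher and 1 lower. At 150 mg/kg and 48 h it was 0 without rat 3057 or without rat 3058, and 1 higher and 1 lower with scaled arrays.

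Of the p53 regulators, 10 of 13 were measured. At 48 h 2 of the 10 fell in each high-dose group, near the background of 18.7% at 1500 mg/kg and 22% at 2000 mg/kg. At 6 and 24 h 0 were called by limma. At an unadjusted p under 0.05 there were 2 and 5 at 6 h and 6 and 4 at 24 h at 1500 and 2000 mg/kg. These unadjusted counts have no share of all features beside them, and nothing is read from them. The genes lower at 48 h were Hipk2, a kinase that phosphorylates p53, at -0.81 ± 0.06 and -1.20 ± 0.28, with Cdkn2a, the Arf locus (-0.61 ± 0.09), at 1500 mg/kg and Usp7, the deubiquitinase of Mdm2 and p53 (-0.62 ± 0.16), at 2000 mg/kg. Without rat 3119 the count at 2000 mg/kg and 48 h was 1, and without rat 3019 at 1500 mg/kg and 24 h, or without rat 3094 or 3095 at 2000 mg/kg and 6 h, 1 gene was called there. At the low doses Usp7 rose at 50 mg/kg and 6 h, with 1.84, 1.80 and 1.58 in the 3 rats (1.74 ± 0.14), and Cdkn2a fell at 50 mg/kg and 48 h (-0.59 ± 0.19), a call that ended without rat 3150.

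**Figure D4:**
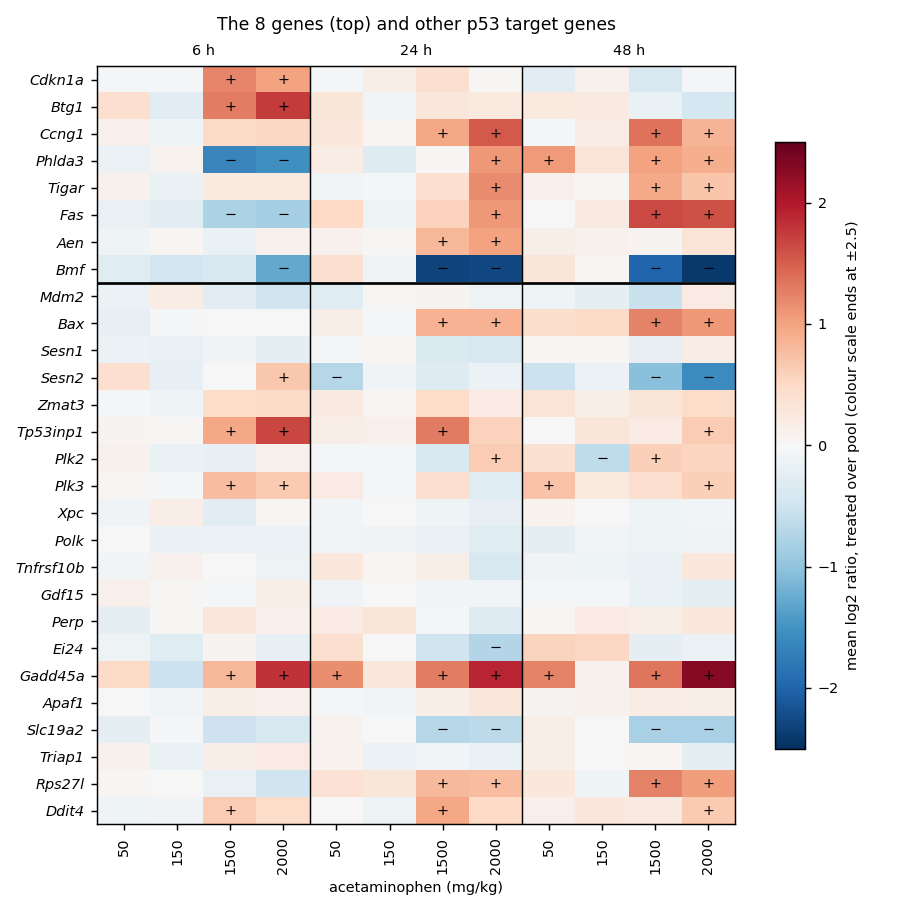
Mean log2 ratio of treated over pool for the 8 genes (above the line) and the measured genes of the p53 target list, by dose (mg/kg) within 6, 24 and 48 h, with the colour scale ending at ±2.5. A plus or minus sign marks a called group. Gadd45a carries a plus sign in all high-dose groups, and Mdm2 in none.

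The partners of p21 were set beside Cdkn1a. Of the cyclins, kinases and clamp that p21 binds, 6 of 10 were measured, and at 48 h, when Cdkn1a was at -0.41 and -0.03, 4 rose at 1500 mg/kg and 3 at 2000 mg/kg (18.7% and 22% of all features were called). Ccne1, cyclin E1, was at 2.14 ± 0.82 and 1.70 ± 0.70, Ccna2, cyclin A2, at 1.51 ± 0.58 and 1.72 ± 0.87 and Pcna at 1.49 ± 0.34 and 1.58 ± 0.39. Ccnd3, cyclin D3, passed at 1500 mg/kg only (0.64 ± 0.13). At 24 h, with Cdkn1a at 0.40 and 0.03, 2 rose at 1500 mg/kg and 3 at 2000 mg/kg (1 without rat 3106). The shares of all features called were 9.89% and 14.8%. At 6 h, when Cdkn1a was highest, Ccne1 was the one gene called, at 2000 mg/kg (0.81 ± 0.39), where 7.96% of all features were. The count there was 0 without rat 3094 or without rat 3095 and 2 without rat 3093, and at 1500 mg/kg it was 1 without rat 3030. Of the other CDK inhibitors, 6 of 7 were measured, and at 48 h 2 rose in each high-dose group and 1 fell at 1500 mg/kg. Cdkn3, a phosphatase of Cdk2 that dividing cells express, was at 3.14 ± 0.40 and 2.90 ± 0.67 at 48 h, and Cdkn2c, p18, at 1.09 ± 0.24 and 1.48 ± 0.27. Beside these, markers of proliferating cells were called higher in 4 of 14 genes in each high-dose group at 24 h, and in 10 at 1500 mg/kg and 11 at 2000 mg/kg at 48 h. Their part in the values of Ccng1, Tigar and Fas at 48 h was not tested.

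Around Btg1, 4 of 7 genes of the BTG and TOB family and their partners were measured, and 2 of these rose at 48 h in each high-dose group. Of all features, 18.7% were called there at 1500 mg/kg and 22% at 2000 mg/kg. Prmt1, the methyltransferase that Btg1 binds, rose at 24 h (0.86 ± 0.38 at 1500 mg/kg and 1.59 ± 0.38 at 2000 mg/kg) and at 48 h (1.01 ± 0.27 and 0.94 ± 0.33). Cnot7, a deadenylase of CCR4-NOT, rose at 48 h (0.86 ± 0.13 and 0.82 ± 0.32) and at 2000 mg/kg and 6 h (0.79 ± 0.09), when Btg1 was highest. Tob2, a relative of Btg1, fell at 2000 mg/kg and 24 h (-0.59 ± 0.11). Of the glycolysis control and pentose phosphate genes set beside Tigar, 7 of 9 were measured. At 48 h 1 rose and 1 fell at 1500 mg/kg (4 were called without rat 3006), where 18.7% of all features were called. At 2000 mg/kg 2 rose and 2 fell (2 were called without rat 3119), where 22% were. Taldo1, transaldolase, rose at 48 h (0.95 ± 0.15 and 1.14 ± 0.12), and Tkt, transketolase, at 1500 mg/kg and 24 h (0.76 ± 0.12) and at 2000 mg/kg and 48 h (0.61 ± 0.44). Pfkfb1, the liver enzyme that makes and breaks fructose-2,6-bisphosphate, fell at 2000 mg/kg at 24 h (-1.35 ± 0.60) and 48 h (-0.88 ± 0.13), and Fbp1, fructose-1,6-bisphosphatase of gluconeogenesis, at 2000 mg/kg and 48 h (-0.84 ± 0.57).

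Bmf was set beside the rest of the BCL2 family, of which 15 of 17 genes were measured. At 24 h 3 rose in each high-dose group. At 48 h 3 rose at 1500 mg/kg, and 4 rose and 2 fell at 2000 mg/kg. The background was 9.89% and 14.8% at 24 h and 18.7% and 22% at 48 h, so that 3 of 15 at 1500 mg/kg and 48 h is near it. Where Bmf read -2.41 ± 0.48, at 2000 mg/kg and 48 h, the lowest mean on the list was -1.0 ± 0.27, for the pore-forming relative Bok, followed by the BH3-only gene Bik at -0.99 ± 0.43. Bcl2a1, a survival gene mostly of white blood cells, was below the pool at 6 h, like Bmf, at -0.88 ± 0.14 and -0.84 ± 0.39. At 48 h it went the other way from Bmf, at 3.07 ± 1.20 and 2.04 ± 0.45. Bnip3, a mitochondrial BH3-like protein of mitophagy, rose in all 6 high-dose groups (0.75 to 1.56), and Bad, a BH3-only gene like Bmf, rose at 2000 mg/kg and 48 h (1.00 ± 0.25). At 6 h 3 rose and 2 fell at 1500 mg/kg, where 7.03% of all features were called, and 0 of the list were called there without rat 3032. At 2000 mg/kg and 6 h 3 rose and 1 fell, where 7.96% of all features were called. Without rat 3020 the count at 1500 mg/kg and 24 h was 5, without rat 3105 that at 2000 mg/kg and 24 h was 6, and without rat 3006 that at 1500 mg/kg and 48 h was 6.

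Fas was set beside the death receptor and caspase genes, of which 17 of 19 were measured. Its ligand Faslg was called in no high-dose group (-0.18, -0.17, -0.16, -0.47, 0.03 and -0.30), nor were the adaptor Fadd (-0.15, -0.23, -0.10, 0.22, 0.26 and 0.21) and the initiator Casp8 (-0.07, -0.11, -0.01, 0.30, -0.01 and 0.10). At 24 h 2 genes rose at 1500 mg/kg and 5 at 2000 mg/kg, and at 48 h 3 and 2. Against the background these are 2 of 17 where 9.89% of features were called, 5 where 14.8% were, 3 where 18.7% were and 2 where 22% were. Tnfrsf1a, the TNF receptor, rose at 24 h (0.61 ± 0.21 and 1.52 ± 0.20), and Xiap, a caspase inhibitor, at 2000 mg/kg and 24 h (0.77 ± 0.13). Birc3, an inhibitor of apoptosis, rose at 48 h (1.35 ± 0.77 and 0.69 ± 0.26), and Cycs, cytochrome c, at 1500 mg/kg and 24 h (0.67 ± 0.28) and at 48 h (0.87 ± 0.24 and 0.67 ± 0.50). The count at 1500 mg/kg and 24 h was 1 without rat 3018 or without rat 3019, that at 2000 mg/kg and 24 h was 3 without rat 3106, and that at 2000 mg/kg and 48 h was 0 without rat 3119.

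**Figure D5:**
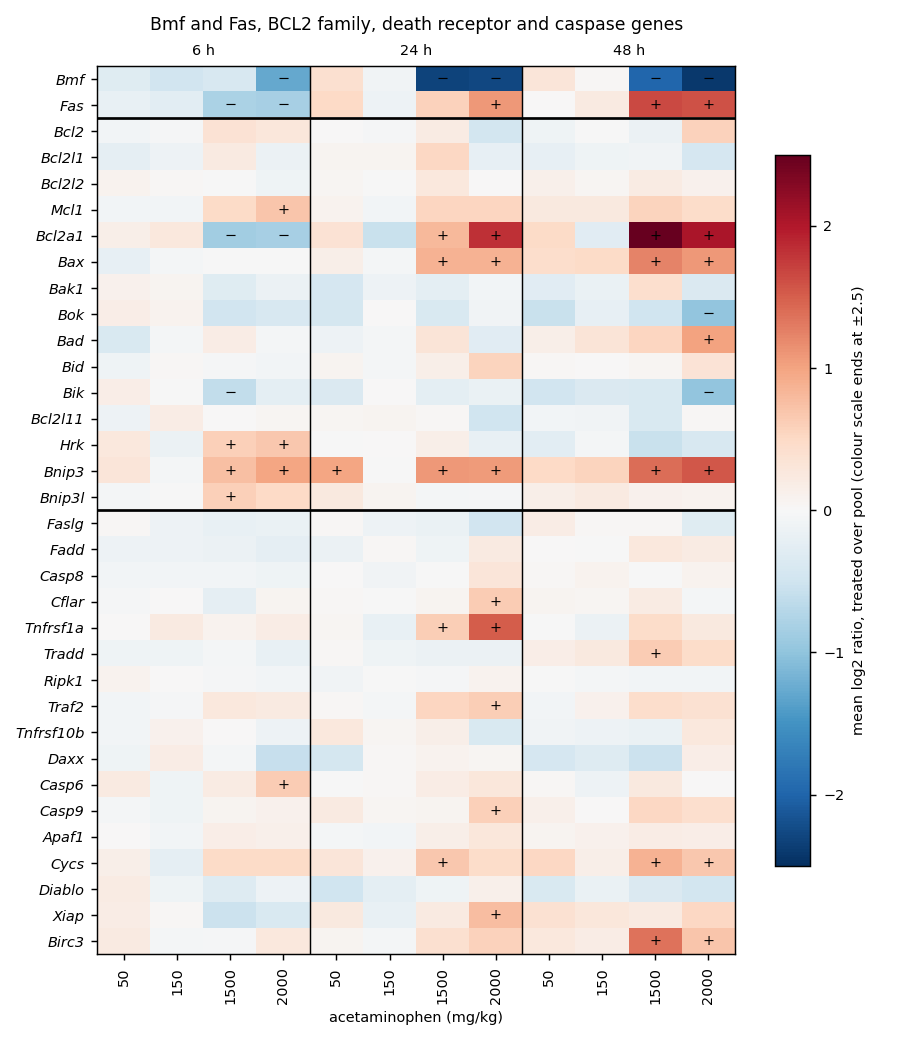
Mean log2 ratio of treated over pool for Bmf and Fas (top), the measured BCL2 family genes and the measured death receptor and caspase genes, by dose (mg/kg) within 6, 24 and 48 h, with the colour scale ending at ±2.5. A plus or minus sign marks a called group. Bmf has the lowest mean of the plot in each high-dose group at 24 and 48 h, and Bcl2a1, at 3.07, passes the end of the scale at 1500 mg/kg and 48 h.

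Markers of cell types were set beside the 8 genes in the high-dose groups. Macrophage markers were called higher in 1 of 10 genes at 1500 mg/kg and 2 at 2000 mg/kg at 24 h, and in 4 and 3 at 48 h, while the Kupffer cell gene Clec4f fell at 24 h (-1.06 ± 0.35 and -0.66 ± 0.47) and at 2000 mg/kg and 48 h. Group means of the list ran from -0.48 to 4.16 at 1500 mg/kg and 48 h. Among them Cd68 (-0.06, -0.07, 0.07, -0.38, -0.15 and -0.24 in the 6 high-dose groups in turn), Csf1r and Cd163 were called in none, and Gpnmb had the largest ratio (4.16 ± 1.08 and 3.03 ± 0.31 at 48 h). Of 3 measured neutrophil markers, 2 were higher at 1500 mg/kg and 1 at 2000 mg/kg both at 24 h and at 48 h. Of the hepatocyte markers 6 of 9 were measured, and at 48 h 1 rose and 2 fell at 1500 mg/kg and 1 rose and 3 fell at 2000 mg/kg. Of the 3 measured cholangiocyte markers 0 were called by limma in a high-dose group, with 0 to 2 at an unadjusted p under 0.05. The unadjusted counts have no share of all features beside them, and nothing is read from them. Background shares at 1500 and 2000 mg/kg were 7.03% and 7.96% (6 h), 9.89% and 14.8% (24 h) and 18.7% and 22% (48 h). Of 5 measured stellate markers, 1 fell in each high-dose group at 6 h and 2 at 1500 mg/kg and 24 h. At 48 h 2 of them rose at each high dose. Of 5 endothelial markers, 2 rose at 1500 mg/kg and 1 at 2000 mg/kg at 48 h, and at 24 h 1 fell and 1 rose in turn. The lists of T and NK cells (8 measured) and B cells (3) had at most 1 call in a high-dose group. The part of these cells in the values of the 8 genes was not tested.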

How the data were processed

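Per the labels' protocols, total RNA of the left liver lobe of single treated rats and of control pools was labelled with Cy3 and Cy5, hybridised in both dye orientations to Agilent rat oligonucleotide arrays, and read with Agilent Feature Extraction software. The deposited table holds log10 ratios of 72 arrays, made by the authors with a software version, settings and normalization not given in the sources used here. Column medians of -0.0191 to 0.019 show a centring whose method is unknown. A limit of 2, at which 23 values stand, gave the log base, and the direction, red over green, is likely from the software's convention. Missing values made up 0.211% of the table.

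Ratios were converted to log2, turned by dye and averaged for each rat. Turned arrays of a rat correlated at -0.43 to 0.72, above 0 in 21 of 36 rats (15 of 18 at the high doses and 6 of 18 at the low doses). Of 20500 probes, 12750 carried 1 symbol, 5 several and 7745 none. Entrez identifiers of 12720 probes matched RefSeq's rat gene table (GRCr8). Probes of a symbol were averaged, and features with under 2 rats in any group were left out, leaving 17299 of 17403 features. The 12 group means were fitted over 36 rats with limma 3.58.1 in R 4.3.3 (residual degrees of freedom 24, prior 3.28), a script also tested on simulated data. Calls needed 1.5-fold and an adjusted p (Benjamini-Hochberg) under 0.05. Each pool counts as 1 control, so the spread between control rats is left out. A script searched the RefSeq promoter windows for the p53 consensus decamer.

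The genes, lists and tests were chosen with earlier results of these data known. Named were all 8 genes and their probes, the 3 genes most correlated with each over 36 rats, and from each pathway list up to 4 genes called at 1500 or 2000 mg/kg with the largest mean, besides Mdm2 and Bax. Others (Clec4f, Bik, Bok, Rps27l, Faslg, Fadd, Casp8, Cd68, Csf1r, Cd163, Gpnmb and those under other observations) were named after their values were seen. Alternatives were arrays scaled to equal median absolute ratio, centred arrays, arrays as observations with a dye term (consensus correlation of a rat's 2 arrays -0.05), single probes, no fold minimum and each rat left out. Probe brightness was not used.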

Additional observations from a re-analysis of the deposited data

Results flagged for a closer look

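Between times, 9 differences of the 8 genes over the high doses passed the test of the difference between the groups themselves. At 24 h relative to 6 h the log2 differences were 2.13 for Phlda3, 1.63 for Fas, 0.95 for Aen, 0.75 for Ccng1, -0.89 for Cdkn1a, -1.25 for Btg1 and -1.46 for Bmf. At 48 h relative to 24 h they were 0.79 for Fas and -0.73 for Aen. Taken singly, probe 13387 of Aen was called in neither of these contrasts, and probe 15802 of Cdkn1a was not called between 24 and 6 h. Between 2000 and 1500 mg/kg at 24 h the differences were 1.06 for Phlda3 and 0.75 for Tigar. The genes were chosen with these contrasts known, and each difference also holds that between separate control pools.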

How the results depend on the processing

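Among 660 values of the 8 genes under the alternatives 61 moved by at least 1 SD between rats, and of the called ones 0 changed sign. Called means lie at least 1.5-fold from the pool, so most alternatives could hardly turn their sign, and nothing is read from that 0. Of the 660, 288 were means without 1 rat, which cannot move by 1 SD with 3 rats, and 0 did. The dye term, which can hardly move a mean, moved 0 of 96. Scaling moved 23 values and left 73. The single probes of Aen moved 9 values each and left 3, those of Cdkn1a moved 4 to 7 and those of Btg1 2 each. Of 194 counts under alternatives that keep all rats, 58 left 1.5 times the main count. Centring each array changed no such count by that much. With arrays scaled to equal spread, the features called numbered 525 (50 mg/kg at 6 h, otherwise 246), 444 (150 mg/kg at 6 h, otherwise 6), 545 (1500 mg/kg at 6 h, otherwise 1216), 822 (2000 mg/kg at 6 h, otherwise 1377), 521 (150 mg/kg at 24 h, otherwise 25), 825 (1500 mg/kg at 24 h, otherwise 1711), 1019 (2000 mg/kg at 24 h, otherwise 2552), 496 (150 mg/kg at 48 h, otherwise 256) and 1661 (1500 mg/kg at 48 h, otherwise 3240). With arrays scaled to equal spread, the features called numbered 2270 (2000 mg/kg at 48 h, otherwise 3802), 21 (2000 minus 1500 mg/kg at 6 h, otherwise 106), 76 (2000 minus 1500 mg/kg at 24 h, otherwise 897), 192 (2000 minus 1500 mg/kg at 48 h, otherwise 935), 857 (24 minus 6 h over the high doses, otherwise 1754) and 646 (48 minus 24 h over the high doses, otherwise 1571). With arrays scaled to equal spread, those of the 8 genes called numbered 1 (150 mg/kg at 6 h, otherwise 0), 0 (2000 minus 1500 mg/kg at 24 h, otherwise 2) and 1 (48 minus 24 h over the high doses, otherwise 2). With arrays scaled to equal spread, the p53 list genes called numbered 1 (150 mg/kg at 6 h, otherwise 0), 2 (1500 mg/kg at 6 h, otherwise 4), 1 (150 mg/kg at 24 h, otherwise 0), 2 (2000 mg/kg at 24 h, otherwise 6), 4 (50 mg/kg at 48 h, otherwise 2), 2 (150 mg/kg at 48 h, otherwise 1) and 5 (2000 mg/kg at 48 h, otherwise 8). Without a fold minimum, the features called numbered 655 (50 mg/kg at 6 h, otherwise 246), 5044 (1500 mg/kg at 6 h, otherwise 1216), 5564 (2000 mg/kg at 6 h, otherwise 1377), 3210 (50 mg/kg at 24 h, otherwise 614), 51 (150 mg/kg at 24 h, otherwise 25), 6296 (1500 mg/kg at 24 h, otherwise 1711), 8123 (2000 mg/kg at 24 h, otherwise 2552), 3201 (50 mg/kg at 48 h, otherwise 684) and 1141 (150 mg/kg at 48 h, otherwise 256). Without a fold minimum, the features called numbered 9793 (1500 mg/kg at 48 h, otherwise 3240), 9375 (2000 mg/kg at 48 h, otherwise 3802), 212 (2000 minus 1500 mg/kg at 6 h, otherwise 106), 2131 (2000 minus 1500 mg/kg at 24 h, otherwise 897), 2568 (2000 minus 1500 mg/kg at 48 h, otherwise 935), 5497 (24 minus 6 h over the high doses, otherwise 1754) and 5738 (48 minus 24 h over the high doses, otherwise 1571). Without a fold minimum, those of the 8 genes called numbered 1 (50 mg/kg at 24 h, otherwise 0), 6 (1500 mg/kg at 24 h, otherwise 3), 2 (50 mg/kg at 48 h, otherwise 1) and 4 (48 minus 24 h over the high doses, otherwise 2). Without a fold minimum, the p53 list genes called numbered 9 (1500 mg/kg at 6 h, otherwise 4), 11 (2000 mg/kg at 6 h, otherwise 4), 5 (50 mg/kg at 24 h, otherwise 2), 12 (2000 mg/kg at 24 h, otherwise 6), 6 (50 mg/kg at 48 h, otherwise 2), 3 (150 mg/kg at 48 h, otherwise 1), 12 (1500 mg/kg at 48 h, otherwise 6) and 15 (2000 mg/kg at 48 h, otherwise 8). With the 72 arrays as observations and a dye term, the features called numbered 51 (150 mg/kg at 6 h, otherwise 6), 59 (150 mg/kg at 24 h, otherwise 25) and 272 (2000 minus 1500 mg/kg at 6 h, otherwise 106). With the 72 arrays as observations and a dye term, those of the 8 genes called numbered 1 (2000 minus 1500 mg/kg at 6 h, otherwise 0). With single probes, those of the 8 genes called numbered 1 (2000 minus 1500 mg/kg at 48 h, otherwise 0). Leaving out 1 rat at a time, the features called numbered 1 to 1 (150 mg/kg at 6 h, otherwise 6), 496 to 2448 (1500 mg/kg at 6 h, otherwise 1216), 38 to 458 (2000 minus 1500 mg/kg at 6 h, otherwise 106), 400 to 914 (50 mg/kg at 24 h, otherwise 614), 3 to 12 (150 mg/kg at 24 h, otherwise 25), 576 to 1290 (2000 minus 1500 mg/kg at 24 h, otherwise 897), 140 to 270 (150 mg/kg at 48 h, otherwise 256) and 553 to 1119 (2000 minus 1500 mg/kg at 48 h, otherwise 935). Leaving out 1 rat at a time, those of the 8 genes called numbered 0 to 1 (2000 minus 1500 mg/kg at 6 h, otherwise 0), 0 to 1 (50 mg/kg at 24 h, otherwise 0), 2 to 5 (1500 mg/kg at 24 h, otherwise 3), 1 to 4 (2000 minus 1500 mg/kg at 24 h, otherwise 2), 0 to 1 (50 mg/kg at 48 h, otherwise 1) and 3 to 6 (2000 mg/kg at 48 h, otherwise 5). Leaving out 1 rat at a time, the p53 list genes called numbered 1 to 5 (1500 mg/kg at 6 h, otherwise 4), 1 to 4 (50 mg/kg at 48 h, otherwise 2) and 0 to 1 (150 mg/kg at 48 h, otherwise 1). No paired analysis was possible because a rat number belongs to 1 rat, whose own 2 arrays share no number with another group. Signal over background was not used here, so what dim probes limit is unknown, and the number of rats, 3 a group, limits the precision.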

Other observations

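Further genes of the p53 target list passed the test in 1 to 4 high-dose groups. Ddit4, an mTORC1 inhibitor induced by several stresses, rose at 1500 mg/kg at 6 h (0.64 ± 0.43) and 24 h (0.96 ± 0.82) and at 2000 mg/kg and 48 h (0.66 ± 0.69). Plk3 rose at 6 h (0.78 ± 0.51 at 1500 mg/kg and 0.66 ± 0.39 at 2000 mg/kg) and at 2000 mg/kg and 48 h (0.60 ± 0.25). Its relative Plk2 rose at 2000 mg/kg and 24 h (0.64 ± 0.23) and at 1500 mg/kg and 48 h (0.60 ± 0.37). Slc19a2, a thiamine carrier, fell in all 4 high-dose groups at 24 and 48 h (-0.71, -0.65, -0.81 and -0.82), and Ei24, a protein of the endoplasmic reticulum, at 2000 mg/kg and 24 h (-0.73 ± 0.25). Gdf15, a secreted stress cytokine, was called in no high-dose group (-0.05, 0.14, -0.07, -0.06, -0.17 and -0.25). In the BCL2 family, the BH3-only gene Hrk rose at 6 h (0.60 ± 0.16 and 0.67 ± 0.21), and Mcl1, a short-lived survival protein of hepatocytes, rose at 2000 mg/kg and 6 h (0.69 ± 0.12). These genes were chosen after their values were seen.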
